A study of Mus musculus with 2 samples.

Results

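The miR-181 family was read from small RNA libraries of mouse liver. Its members were taken as every listed miRNA whose name begins with mmu-miR-181, whichever arm or genomic copy, without regard to its count. Of 197 named mature miRNAs listed in either library, 6 belonged to the family, and each of the 6 was listed in both. They were mmu-miR-181a-5p, mmu-miR-181b-5p, mmu-miR-181c-5p, mmu-miR-181d-5p, mmu-miR-181a-1-3p and mmu-miR-181a-2-3p. RefSeq names 10 mature arms of the family, and the remaining ones (miR-181b-1-3p, miR-181b-2-3p, miR-181c-3p and miR-181d-3p) were listed in neither library. The study comprised 1 group, ad libitum fed C57BL/6 wild-type animals of 2 to 3 months whose liver was sampled, with 2 replicate libraries labelled as controls. No other genotype, diet or treatment was analysed here, so levels are described and the libraries are compared with each other. The labels do not say whether the replicates came from separate animals, and p-values measure only the difference between these libraries, which may be technical.

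A miRNA is cut from a hairpin precursor, whose 5' arm gives the 5p and whose 3' arm the 3p mature strand; the strand that is loaded into an Argonaute protein is the one that accumulates. Target choice rests mainly on the seed, bases 2 to 8 of the mature strand. The miR-181 family is encoded by paired hairpins at separate loci and is best known for its role in lymphocyte development, where miR-181a tunes the sensitivity of the T cell receptor. In liver it has been reported to repress Sirt1, a deacetylase that uses NAD and controls fasting metabolism.

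The 4 members of the 5p arm are shown because their shared seed defines the family and the few bases outside it decide how reads divide among paralogs. Sequences are from RefSeq (GRCm38.p6), 5' to 3', with the seed in capitals.
miR-181a-5p: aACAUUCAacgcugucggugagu
miR-181b-5p: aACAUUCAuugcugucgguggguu
miR-181c-5p: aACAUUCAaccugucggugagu
miR-181d-5p: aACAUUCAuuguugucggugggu

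The seed was the same in all 4, and no other miRNA listed in either library, nor any other mature name in the RefSeq table, carried it. Counted from 1 at the 5' end, miR-181b-5p differs from miR-181a-5p by A9U, C10U and A21G, and its RefSeq form is 1 base longer. The closest pair is miR-181a-5p and miR-181c-5p, 1 edit apart through a single base that miR-181c-5p lacks. miR-181b-5p and miR-181d-5p are 2 edits apart, C12U and the last base of the longer miR-181b-5p. The paralogs are 22 to 24 bases long, so their counts were compared without scaling by length.

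The 3p arms of the hairpins Mir181a-1 and Mir181a-2 are shown because they are the only listed sequences that tell those copies apart. The RefSeq forms are given, and capitals are not used here. In both libraries miR-181a-2-3p was listed as 20 bases, ending 2 bases before the RefSeq end.
miR-181a-1-3p: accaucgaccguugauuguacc
miR-181a-2-3p: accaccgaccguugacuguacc
They differ by U5C and U16C, written from miR-181a-1-3p to miR-181a-2-3p.

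The hairpins lie in pairs on 3 chromosomes (GRCm38, GENCODE M21). Mir181a-1 at chr1:137966455-137966541 and Mir181b-1 at chr1:137966639-137966718, both on the plus strand, are 97 bases apart. Both lie in an intron of the processed transcript Gm4258 and overlap an exon of the lincRNA A430106G13Rik on the same strand. Mir181a-2 at chr2:38852735-38852810 and Mir181b-2 at chr2:38853830-38853918, also on the plus strand, are 1019 bases apart. They lie opposite an intron of Nr6a1, which encodes an orphan nuclear receptor and is transcribed from the other strand. Mir181c at chr8:84178873-84178961 and Mir181d at chr8:84178716-84178787, on the minus strand, are 85 bases apart in an intron of Nanos3 on the same strand. The deposited files class the locus of all 6 members as intergenic, while their gene annotation places miR-181a-1-3p in an intron of Gm4258 and, in replicate 1, miR-181b-5p in an exon of A430106G13Rik and an intron of Gm4258.

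The family took 3.73% ± 0.742 of named miRNA counts (SD, n = 2). Replicate 1 gave 3.20% (95% interval 3.14 to 3.27), and replicate 2 gave 4.25% (4.20 to 4.31). Nearly all of it was miR-181a-5p, which took 97.0% of the 5p counts of the family in replicate 1 and 97.7% in replicate 2. Depth behind these shares was 306351 and 538023 named counts. Intervals are exact Clopper-Pearson intervals and cover counting error only, since reads without molecular identifiers are not independent molecules.

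mmu-miR-181a-5p had 9515 counts in replicate 1 and 22351 in replicate 2. These were 3.11% (3.04 to 3.17) and 4.15% (4.10 to 4.21) of named counts, ranking 7 and 5. The 2 miRNAs just above it in mean share were miR-30a-5p at 4.54% ± 0.668 and miR-30d-5p at 4.09% ± 0.538, and the 2 just below were miR-122-5p at 2.77% ± 0.380 and let-7c-5p at 2.47% ± 0.678, against 3.63% ± 0.741 for miR-181a-5p (SD, n = 2 for each). The order of these neighbours was not fixed across libraries. miR-181a-5p lay below miR-30a-5p and miR-30d-5p in replicate 1 and above both in replicate 2, whereas it lay above miR-122-5p, the most abundant hepatocyte-enriched miRNA in most liver profiles, in both. These are orders of read share, and whether the amounts of these miRNAs in liver follow the same order was not tested.

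mmu-miR-181c-5p had 116 counts in replicate 1 and 276 in replicate 2, or 0.0379% (0.0313 to 0.0454) and 0.0513% (0.0454 to 0.0577) of named counts. mmu-miR-181b-5p had 155 and 203 counts, or 0.0506% (0.0429 to 0.0592) and 0.0377% (0.0327 to 0.0433). Their mean shares were alike, 0.0446% ± 0.00950 and 0.0442% ± 0.00910 (SD, n = 2). mmu-miR-181d-5p was lower, with 21 and 38 counts, or 0.00685% (0.00424 to 0.0105) and 0.00706% (0.00500 to 0.00969). The 3p arms were at the floor of the files: mmu-miR-181a-1-3p had 4 and 6 counts, and mmu-miR-181a-2-3p had 1 and 2.

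**Figure D1:**
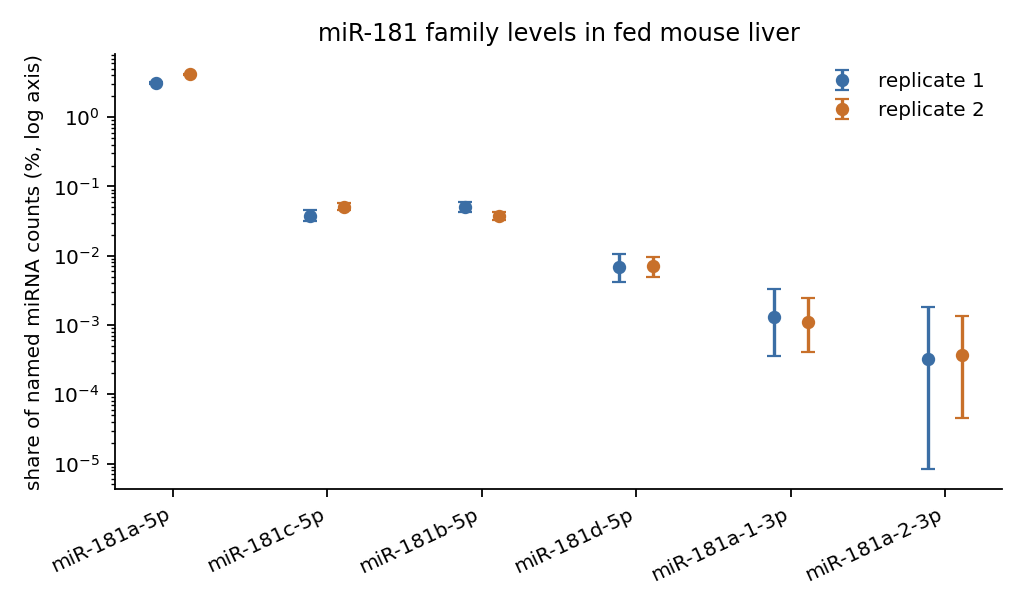
Share of named miRNA counts (percent, log axis) of the 6 listed miR-181 members in replicate 1 (blue) and replicate 2 (orange), with exact 95% counting intervals. miR-181a-5p stood at 3.11% and 4.15%, miR-181b-5p and miR-181c-5p between 0.0377% and 0.0513%, and the 3p arms had 1 to 6 counts.

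Within each library adjacent paralogs were compared by a 2-sided exact binomial test against equal counts, adjusted over the 6 comparisons by Benjamini-Hochberg. miR-181a-5p exceeded miR-181c-5p 82.0-fold in replicate 1, with a 95% interval of 68.3 to 99.4, and 81.0-fold in replicate 2 (71.9 to 91.5), so this ratio was nearly the same in both. miR-181b-5p exceeded miR-181d-5p 7.38-fold (4.66 to 12.3) and 5.34-fold (3.76 to 7.77), for which the exact test gave adjusted p-values of 2.92e-26 and 4.00e-28.

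The order of miR-181b-5p and miR-181c-5p turned over between the libraries. In replicate 1 miR-181b-5p was 1.34-fold higher than miR-181c-5p (1.04 to 1.71, exact binomial test, adjusted p = 0.0208). In replicate 2 miR-181c-5p was 1.36-fold higher than miR-181b-5p (1.13 to 1.64, exact binomial test, adjusted p = 0.00118). Both ratios passed the test in opposite directions, so neither paralog can be placed above the other from these libraries.

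The split of 5p counts among paralogs, which does not depend on how libraries are scaled, was compared between libraries by a 2-sided Fisher's exact test, adjusted over the 4 paralogs. miR-181b-5p held 1.58% of family 5p counts in replicate 1 (1.34 to 1.85) but only 0.888% in replicate 2 (0.770 to 1.02), a difference that passed (exact test, adjusted p = 4.28e-07). For miR-181a-5p the shares were 97.0% (96.7 to 97.4) and, in replicate 2, 97.7% (97.5 to 97.9), and the exact test gave an adjusted p of 0.000376. The shares of the 4 paralogs make up the whole, so the results for miR-181a-5p and miR-181b-5p are not independent. miR-181c-5p took 1.18% (0.978 to 1.42) and 1.21% (1.07 to 1.36), and miR-181d-5p 0.214% (0.133 to 0.327) and 0.166% (0.118 to 0.228). Neither passed, with adjusted p-values of 0.912 and 0.525 in the exact test.

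**Figure D2:**
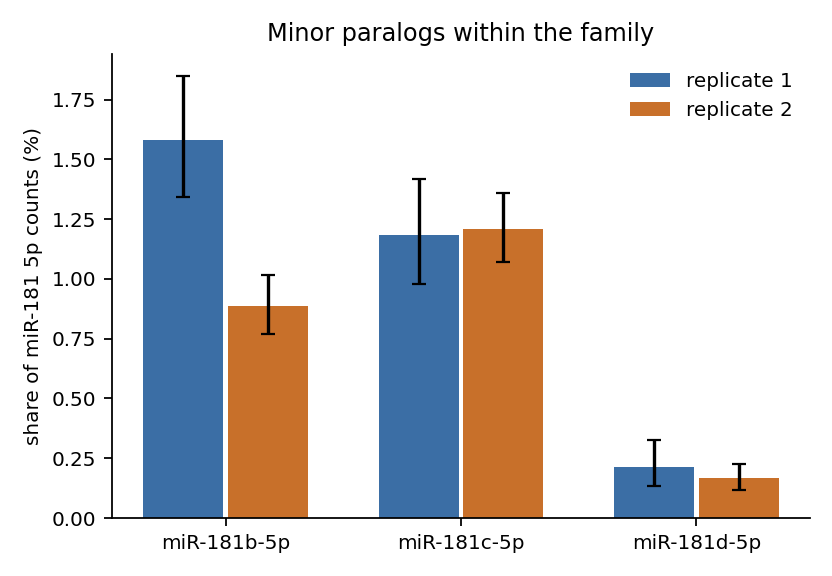
Share of all miR-181 5p counts (percent) held by miR-181b-5p, miR-181c-5p and miR-181d-5p in each library, with exact 95% counting intervals. The bars of miR-181b-5p stand at 1.58% and 0.888% with intervals that do not overlap, while those of miR-181c-5p stand at 1.18% and 1.21%.

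The libraries that differed in the share of miR-181b-5p also listed it at different genomic copies. In replicate 1 it was listed at Mir181b-1, chr1:137966650-137966671, as a sequence of 22 bases. In replicate 2 it was listed at Mir181b-2, chr2:38853845-38853867, as a sequence of 23 bases. The listed forms begin at the RefSeq start and end 2 and 1 bases before the RefSeq end, and each occurs in the reference hairpins of both Mir181b-1 and Mir181b-2. The listing thus does not tell which copy was transcribed, and whether the locus bears on the count was not tested.

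Both libraries placed miR-181a-5p at Mir181a-2, chr2:38852741-38852763, although its 23 bases occur in the reference hairpins of Mir181a-1 and Mir181a-2 alike. Mir181a-1 appeared through its 3p arm alone, at chr1:137966508-137966529. Of the few counts on miR-181a 3p arms, which do differ between the copies, Mir181a-1 held 4 of 5 in the first library (80%, 95% interval 28.4 to 99.5) and 6 of 8 in the other (75%, 34.9 to 96.8). The copy that was given all of the 5p counts was therefore the one with fewer of the 3p counts in both libraries, but the intervals span equal shares. miR-181c-5p, miR-181d-5p and both 3p arms each occur in 1 reference hairpin of the family, and each was listed there in both libraries.

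Among mature names with more than 1 genomic copy in RefSeq or in the files, 17 were listed in either library and 12 in both. Of those 12, 6 were listed at the same single copy in both libraries, miR-181a-5p among them, 2 at the same pair of copies, and 3 gained a copy in 1 library. miR-181b-5p was the only one of the 12 listed at a different single copy in each library.

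**Figure D3:**
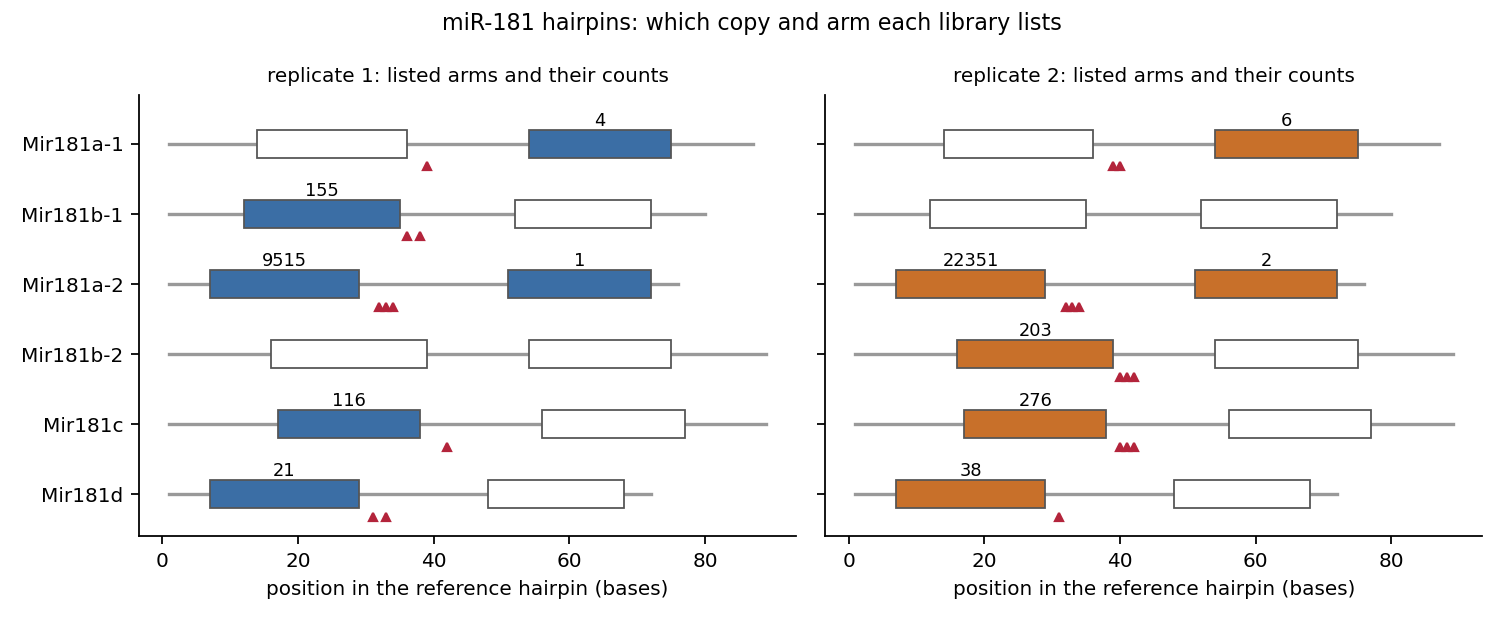
The 6 miR-181 hairpins drawn to scale along the reference hairpin (bases), for each library; boxes are the RefSeq 5p (left) and 3p (right) arms, filled where that arm was listed at that copy, with its count above. miR-181b-5p is filled at Mir181b-1 in replicate 1 (155 counts) and at Mir181b-2 in replicate 2 (203), and red triangles, all just past the 5p arm, mark bases where the deposited hairpin differs from the reference.

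Mir181a-2 was the only hairpin of the family with both arms listed. It had 9515 counts on 5p and 1 on 3p in replicate 1, and 22351 and 2 in replicate 2, for a 5p share of 99.99% ± 0.00110 (SD, n = 2). Among the 47 hairpins with both arms listed in both libraries and at least 20 counts in each, its ratio between arms ranked 2 in each library, behind Mir22. With the arms of both miR-181a hairpins pooled, 5 and 8 counts lay on 3p, the ratio ranked 5 and 4 among the other hairpins as listed, and the 5p share was 99.95% in replicate 1 (99.88 to 99.98) and 99.96% in replicate 2 (99.93 to 99.98). The arm share of Mir181a-2 did not pass Fisher's exact test between libraries (adjusted p = 1), where 8.51% of the 47 hairpins did. With only 1 and 2 counts on its 3p arm it could not have passed, so a stable arm share cannot be read from this test. The 3p arms of Mir181b-1, Mir181b-2, Mir181c and Mir181d were not listed, and because the files hold called loci only, this sets no upper limit on them.

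The libraries were compared over all 131 miRNAs listed in both with at least 10 counts summed, by a 2-sided exact binomial test at library sizes scaled by edgeR's trimmed mean of M values (TMM), adjusted over all 131. Ratios are replicate 2 to replicate 1 on the log2 scale. Of the 131, 44.3% passed, and 21.4% were higher in replicate 2. Of the 5 miR-181 members tested, 2 were higher in replicate 2, none was lower and 3 did not pass, and their median log2 ratio was 0.19 against -0.03 for all tested. The sixth member, miR-181a-2-3p, had too few counts to be tested.

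miR-181a-5p was 1.498-fold higher in replicate 2 (log2 ratio 0.58, 95% counting interval 0.55 to 0.62), and miR-181c-5p 1.51-fold higher (0.60, 0.28 to 0.93). The exact binomial test gave adjusted p-values of 4.80e-249 for miR-181a-5p and 0.000423 for miR-181c-5p. By absolute ratio miR-181a-5p ranked 35 of 131. miR-181b-5p had a log2 ratio of -0.26 (-0.57 to 0.05), miR-181d-5p 0.19 (-0.60 to 1.05) and miR-181a-1-3p -0.12 (-2.14 to 2.20), with adjusted p-values of 0.185, 0.836 and 1 in the exact test. For the last of these the counts allow changes of over 4-fold in either direction.

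The calls depended in part on scaling. When libraries were scaled by their totals, the median of all tested miRNAs moved from -0.03 to -0.19, and the calls over all miRNAs from 28 higher and 30 lower to 19 and 45. miR-181a-5p (0.42) and miR-181c-5p (0.43) were still called higher. miR-181b-5p (-0.42) was then called lower, at an adjusted p of 0.0161 (exact binomial test). Scaling shifts every log2 ratio by the same amount, so the distance from the median of all cannot change with it. That distance was 0.61 and 0.62 above for miR-181a-5p and miR-181c-5p, and 0.24 below for miR-181b-5p.

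**Figure D4:**
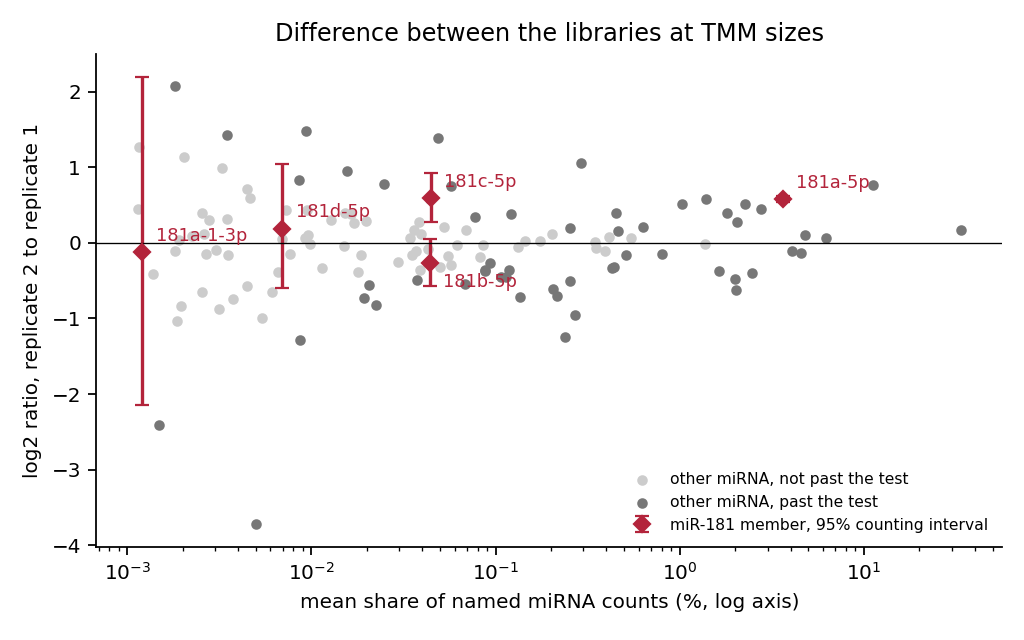
Log2 ratio of replicate 2 to replicate 1 at TMM library sizes against mean share of named counts (percent, log axis) for the 131 tested miRNAs; red diamonds are miR-181 members with 95% counting intervals, and dark grey points are other miRNAs past the test. miR-181a-5p (0.58) and miR-181c-5p (0.60) lie at nearly the same ratio although their levels differ about 82.0-fold, while miR-181b-5p lies at -0.26.

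The miRNAs whose ratio between libraries was nearest to that of miR-181a-5p were sought among the 73 with at least 100 counts in each library. They were miR-671-3p (116 and 273 counts, log2 ratio 0.58), miR-151-3p (3628 and 8492, 0.58) and the paralog miR-181c-5p. Likeness here is the difference in log2 ratio, 0.000809, 0.00520 and 0.0149, and rests on 2 libraries.

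The weight of a single paralog was set beside that of other groups with a common seed and at least 3 names listed in both libraries. The leading member held 97.4% ± 0.507 of counts in the miR-181 group (SD, n = 2). This compared with 99.7% ± 0.0637 for miR-92a-3p in its group of 3 names, 84.6% ± 0.412 for miR-15b-5p in its group of 3 and 60.9% ± 3.52 for miR-125b-5p in its group of 3. It was 45.9% ± 0.308 for miR-30a-5p among 5 and 31.1% ± 1.19 for let-7c-5p among 8. The difference between groups was not tested.

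The family was then placed among miRNAs reported to target Sirt1, a list of 15 names that includes its 4 members of the 5p arm. The list held 36.8% of named counts in replicate 1 and 38.2% in replicate 2. Without miR-181 it held 33.6% and 33.96%. miR-22-3p made up nearly all of the rest, with 102898 and 182550 counts. miR-34a-5p, a p53-induced miRNA, had 41 and 51 counts, miR-195a-5p had 23 and 18, and miR-132-3p and miR-199a-5p were listed in the second library only, with 34 and 48. Another 6 names of the list were in neither library. Of its 7 tested members 3 were higher in replicate 2, miR-181a-5p, miR-181c-5p and miR-22-3p (0.18), and none was lower, beside the 21.4% of all tested miRNAs that were higher. This count includes the family calls given above. Without miR-181, 1 of 3 tested members was higher and none was lower, with a median log2 ratio of -0.34. Scaled by library totals, miR-22-3p kept its call at a log2 ratio of 0.01, and miR-181b-5p and miR-195a-5p (-1.16) were called lower.

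Because miR-181 is abundant in lymphocytes, markers of cell types that liver can hold were read beside it. All 4 hepatocyte markers were listed and held 4.79% and 5.11% of named counts in replicate 1 and replicate 2. miR-122-5p (log2 ratio 0.44) and miR-148a-3p (0.16) were called higher in replicate 2, while the test was missed by miR-194-5p (0.01), as by miR-192-5p (-0.02). Scaled by library totals, miR-122-5p (0.28) was still called higher, miR-148a-3p (-0.00054) no longer passed, and both miR-194-5p (-0.15) and miR-192-5p (-0.18) fell among the lower calls. Of 6 lymphoid and myeloid markers 2 were listed, together at 0.341% and 0.212%. These were miR-150-5p, a marker of mature lymphocytes, with 953 and 1059 counts (log2 ratio -0.50), and miR-146a-5p with 91 and 81 (-0.82), both called lower in replicate 2 under either scaling, where 22.9% of all tested miRNAs were lower at TMM sizes. miR-142a-3p, miR-142a-5p, miR-155-5p and miR-223-3p were not listed. Both endothelial markers were listed, together at 0.0444% and 0.0355%. These, miR-126a-3p (log2 ratio -0.88) and miR-126a-5p (-0.10), also had lower ratios in replicate 2 but did not pass under either scaling. Of 4 erythroid markers 1 was listed, in replicate 2, with 14 counts. Under either scaling, miR-181a-5p was higher in the library where miR-122-5p was higher and the listed lymphoid and myeloid markers were lower. The hepatocyte markers did not move together, since of the 4 only miR-122-5p was called higher whichever scaling was used. The part of any of these cell types in the level of miR-181a-5p was not tested. In whole tissue, fewer cells of a type and less of the miRNA per cell cannot be told apart.

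The deposited files also give a hairpin sequence for each member, and in all 6 rows of each library it differed from the reference hairpin. The span listed for Mir181a-2 is shown first from GENCODE M21 and then as listed in both libraries, and that of Mir181c first from GENCODE and then as listed in replicate 2, because the latter differed between libraries. Capitals mark the differing bases.
Mir181a-2, reference: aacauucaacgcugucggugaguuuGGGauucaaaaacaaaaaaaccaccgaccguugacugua
Mir181a-2, listed: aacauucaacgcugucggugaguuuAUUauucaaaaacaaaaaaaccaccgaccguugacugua
Mir181c, reference: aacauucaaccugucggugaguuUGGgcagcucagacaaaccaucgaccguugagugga
Mir181c, listed in replicate 2: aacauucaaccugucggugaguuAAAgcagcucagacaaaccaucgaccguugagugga

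Counted from 1 at the start of the listed hairpin, Mir181a-2 carried G26A, G27U and G28U in both libraries. Mir181c carried only G26U in replicate 1, and U24A, G25A and G26A in replicate 2. Every difference in the family lay 1 to 5 bases past the end of the 5p arm, in the loop, and none lay in a listed mature sequence. All were listed as A or U, in 12 of 12 cases in replicate 1 and 15 of 15 in replicate 2, and the reference base was G in 11 and 12 of them (Mir181a-2 counts once for each arm). Differences were common in the files as a whole: 73.7% of 167 named rows in replicate 1 and 76.8% of 185 in replicate 2 differed from the reference hairpin. Of the differing bases in all these rows, 92.9% and 93.7% were listed as A or U. The reference base was G in 51.5% and 48.0% of them, a smaller part than in the family. A difference within the mature sequence was found in 19 of the 167 rows in replicate 1 and 24 of the 185 in replicate 2. At that share, its absence from the 6 family rows of each library does not set the family apart. The cause of these differences was not tested, and the loop letters in the files cannot be read as the genome sequence.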

How the data were processed

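The authors deposited raw read counts per called miRNA locus, 1 table per library, with position, mature and hairpin sequence and annotation; the counts are whole numbers and not normalised, per the file headers and values. Bowtie 1.0.1, cutadapt 1.5, FastQC 0.11.2 and build GRCm38 come from the submitters' processing notes; the locus caller and its assignment of reads matching several loci are not stated there or in the labels. Loci without a miRNA name (5.02% and 2.46% of 323447 and 553325 listed counts) were left out. A name with several loci took its highest count, and an unlisted miRNA was not taken as 0. File positions count from 0 and were raised by 1. TMM factors came from edgeR 4.0.16 and alternative size factors from DESeq2 1.42.0, over the tested miRNAs (listed in both, minimum of 10 counts summed); other steps used Python 3.11.15 with scipy 1.17.1. edgeR's quasi-likelihood test needs a contrast between groups and was not run. Log2 ratios have a prior count of 0.5, and the threshold is an adjusted p of 0.05. Alternatives were library totals, DESeq2 size factors, other count minimums, summed loci, a prior count of 2 and unlisted miRNAs as 0. The test was checked on counts simulated with counting error and planted changes only. That check cannot give its error rate where libraries of 1 group differ by more than counting error. Hairpins were placed on GENCODE M21 without gaps. RefSeq matched all 6 members in name and start position. The named miRNAs are the members, the neighbours in level, the nearest in ratio, miR-22-3p and miR-122-5p, and the marker and Sirt1 lists. Members and lists were chosen with earlier results of these data known.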

Additional observations from a re-analysis of the deposited data

How the results depend on the processing

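Across 7 alternatives miR-181a-5p kept a log2 ratio between libraries of 0.42 to 0.61 and miR-181c-5p one of 0.43 to 0.62. Both were called higher in replicate 2 each time by the exact binomial test, with adjusted p-values of at most 7.21e-128 and 0.0146. Library totals and DESeq2 size factors set the ends of both ranges. The other alternatives left the ratio of miR-181a-5p at 0.58, so they tested it little. miR-181b-5p ranged from -0.42 to -0.24 with adjusted p-values of 0.0161 to 0.236 in the exact test. With library totals 1 member, miR-181b-5p, was called lower, against none at TMM sizes. Pooling the arms of both miR-181a hairpins moved the mean 5p share from 99.99% to 99.96%, by the 3p counts of Mir181a-1 that it adds. With all listed loci in the total, the share of miR-181d-5p moved to 0.00668%, by more than its small SD, and that of the family was 3.58%. Left with 1 library, the family stood between 3.20% and 4.25%, and miR-181b-5p between 0.888% and 1.58% of family 5p counts; no comparison between libraries could then be made. Summing loci changed no member's count, since each member had 1 locus per library. Depth limits miR-181d-5p and the 3p arms, whose differences between libraries were not detectable at these counts.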

Other observations

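The files also give a predicted secondary structure for each listed hairpin, drawn on the deposited sequence. In it miR-181a-5p had 18 of its 23 bases paired, miR-181c-5p 17 of 22 in both libraries and miR-181d-5p 18 of 23. miR-181b-5p had 17 of 22 bases paired at Mir181b-1 in replicate 1 and 19 of 23 at Mir181b-2 in replicate 2. Of the 7 seed bases, 6 were paired in miR-181a-5p, miR-181b-5p and miR-181c-5p, and 7 in miR-181d-5p. The structures rest on loop bases that differ from the reference, and were not recomputed.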
